A study of Mus musculus with 12 samples.

Results

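CXC chemokine ligands are small secreted proteins that direct leukocyte traffic, and 9 of their genes were followed here in the mouse striatum after ischemic stroke: Cxcl1, Cxcl2, Cxcl5, Cxcl9, Cxcl10, Cxcl12, Cxcl13, Cxcl14 and Cxcl16. They are 9 of the 54532 gene IDs counted, taken by gene symbol with no cut on a measured value, although the family was picked with earlier results of these data known. RNA sequencing covered 6 groups of 2 libraries, 12 in all: cGAS-KO, STING-KO and wild-type (WT) mice at 14 days, and the same 3 genotypes at 7 days, after the stroke. The cGAS-KO and STING-KO lines lack Cgas and Tmem173 (the gene of STING) by CRISPR-Cas9 editing, all mice were on the C57BL/6J background, all had a stroke, and there was no uninjured group. Ages were not given, and the labels do not say whether the 2 libraries of a group came from separate mice, so a p-value here reflects only the spread between libraries, which may be technical. cGAS senses cytosolic DNA, and STING relays its signal to the induction of type I interferon and of inflammatory cytokines.

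The ligands differ in which cells they call. Cxcl1, Cxcl2 and Cxcl5 carry an ELR motif and draw neutrophils through the receptor Cxcr2. Cxcl9 and Cxcl10 are induced by interferons and draw activated T cells and natural killer cells through Cxcr3, while Cxcl13 draws B cells through Cxcr5. Cxcl16 is a transmembrane ligand of Cxcr6 that the protease Adam10 sheds from the cell surface. Cxcl12, the ligand of Cxcr4 and Ackr3, is made constitutively by vascular, stromal and choroid plexus cells, and Cxcl14 is a constitutive ligand found in epithelia and in some neurons. Microglia, astrocytes, endothelial cells and infiltrating myeloid cells of the injured brain can all make the inducible ligands.

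Library totals ran from 15956242 to 22126213 counts, with 23492 to 25861 genes detected per library, and 3 counts equalled 0.133 to 0.195 CPM (counts divided by the normalised library size). The labels did not hold in every comparison. At 14 days Cgas had 4.09 and 6.15 CPM under the cGAS-KO label, against 12.6 and 7.68 CPM in WT. At 7 days it was higher under that label, with 5.55 and 5.66 CPM against 3.25 and 2.97 CPM in WT. Tmem173 likewise had 2.40 and 5.21 CPM under the STING-KO label at 14 days, against 22.3 and 20.8 CPM in WT, but 20.9 and 23.8 CPM at 7 days, against 2.80 and 2.71 CPM in WT. A small edit can leave a transcript in place, and whether that bears on the reversal at 7 days was not tested. Under the STING-KO label Cgas had 4.50 and 3.58 CPM at 14 days, and 11.2 and 12.6 CPM at 7 days. Whether libraries were exchanged was not tested and cannot be settled from the counts. An exchange of the 7-day STING-KO and WT labels would turn the direction of their 7-day difference, and would also change the comparisons over time and the interactions. It would likewise exchange the 7-day comparison of cGAS-KO with WT and that of cGAS-KO with STING-KO libraries. Every genotype below is therefore the label only. The 7-day libraries differed in the tissue they showed. In 7-day WT libraries 5 markers of cortical and hippocampal neurons summed to 1464 to 1739 CPM, against 18.1 to 555 CPM in the other 5 groups. Choroid plexus markers summed to 2477 to 4410 CPM in 7-day cGAS-KO and 2745 to 4416 CPM in 7-day STING-KO, against 52.3 to 660 CPM elsewhere. Fibroblast markers summed to 2935 to 4534 CPM and 1655 to 2009 CPM in these knockout groups, against 93.7 to 403 CPM elsewhere. The defining markers of the striatum varied as widely. The 10 genes of striatal projection neurons summed to 2000 to 3233 CPM in 14-day cGAS-KO, 6999 to 7857 CPM in 14-day STING-KO, 1002 to 1201 CPM in 14-day WT, 222 to 553 CPM in 7-day cGAS-KO, 243 to 564 CPM in 7-day STING-KO and 341 to 361 CPM in 7-day WT libraries. What these differences contributed to any result below was not tested.

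Of the 9 genes, 6 lie on chromosome 5 (mm10, the same assembly as GRCm38; exon models of GENCODE M21). Cxcl5 (ENSMUSG00000029371) spans 90759360 to 90761624, Cxcl1 (ENSMUSG00000029380) 90891241 to 90893115, Cxcl2 (ENSMUSG00000058427) 90903871 to 90905938 and Cxcl13 (ENSMUSG00000023078) 95956951 to 95961068, all on the plus strand. Cxcl9 (ENSMUSG00000029417) spans 92321347 to 92328079 and Cxcl10 (ENSMUSG00000034855) 92346638 to 92348889 on the minus strand. Cxcl12 (ENSMUSG00000061353) lies on chromosome 6 from 117168535 to 117181367 on the plus strand, Cxcl16 (ENSMUSG00000018920) on chromosome 11 from 70453983 to 70459984 and Cxcl14 (ENSMUSG00000021508) on chromosome 13 from 56288643 to 56296551, the last pair on the minus strand. Cxcl1 and Cxcl2 are 10.8 kb apart, and Cxcl9 and Cxcl10 are 18.6 kb apart.

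The RefSeq promoter table (GRCm38.p6) held 7 of the 9 genes, without Cxcl5 and Cxcl16. The 250 bases before the annotated start of 4 of them are shown, because Cxcl1, Cxcl9 and Cxcl10 are inducible ligands of the close pairs on chromosome 5 and Cxcl14 was highest in 7-day WT libraries, where those 3 were low. Capitals mark letters that matched a searched motif on either strand, with overlapping matches joined: kappaB as GGGNNNNNCC, the interferon-stimulated response element (ISRE) as GAAANNGAAA, and the gamma-activated sequence (GAS) as TTCNNNGAA. The windows are chr5:90890995-90891244 (plus strand), chr5:92328080-92328329, chr5:92348890-92349139 and chr13:56296552-56296801 (minus strand), each written 5′ to 3′.
Cxcl1: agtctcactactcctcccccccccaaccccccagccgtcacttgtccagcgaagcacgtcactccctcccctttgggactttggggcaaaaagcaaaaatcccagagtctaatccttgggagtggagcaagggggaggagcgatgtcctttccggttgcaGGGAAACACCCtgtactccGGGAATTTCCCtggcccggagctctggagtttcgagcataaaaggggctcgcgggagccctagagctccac
Cxcl9: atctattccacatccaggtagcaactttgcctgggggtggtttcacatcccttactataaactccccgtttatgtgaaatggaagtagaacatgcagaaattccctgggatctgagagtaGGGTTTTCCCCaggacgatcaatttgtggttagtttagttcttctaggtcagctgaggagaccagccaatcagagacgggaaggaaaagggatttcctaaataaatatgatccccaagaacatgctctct
Cxcl10: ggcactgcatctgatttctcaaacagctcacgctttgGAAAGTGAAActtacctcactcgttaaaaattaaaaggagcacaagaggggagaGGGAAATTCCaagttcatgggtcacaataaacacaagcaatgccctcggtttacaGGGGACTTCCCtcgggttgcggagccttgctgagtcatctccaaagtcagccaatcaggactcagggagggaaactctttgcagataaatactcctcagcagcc
Cxcl14: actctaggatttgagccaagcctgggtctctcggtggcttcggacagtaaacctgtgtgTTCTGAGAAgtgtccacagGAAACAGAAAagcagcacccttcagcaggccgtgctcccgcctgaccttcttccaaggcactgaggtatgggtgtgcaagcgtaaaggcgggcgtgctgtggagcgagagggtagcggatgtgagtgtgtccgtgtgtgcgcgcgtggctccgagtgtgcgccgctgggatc
The Cxcl1 window held 4 kappaB matches in 2 runs, the nearer one beginning 71 bases before the start (position -71, GGGAATTTCC). The Cxcl2 window held the same 10 letters at position -97, among 3 kappaB matches. Cxcl9 had 2 overlapping kappaB matches from position -130, and Cxcl10 had 3 kappaB matches, at -159, -104 and -103, and 1 ISRE match at -213 (GAAAGTGAAA). Cxcl12 and Cxcl13 had 1 kappaB match each, while Cxcl14 had none, with 1 ISRE match at -172 and 1 GAS match at -191. A kappaB match is common and the others are less so: among 27025 mouse promoter windows of this length, 45.4% held a kappaB match, 3.04% an ISRE match and 7.18% a GAS match. A match describes the letters and is not evidence of binding.

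Set per kilobase of exon, Cxcl14 stood highest of the 9 ligands in 5 of the 6 groups, between 22.7 ± 0.0079 CPM per kb in 14-day STING-KO and 56.8 ± 4.09 CPM per kb in 7-day WT libraries (SD, n = 2 each). In 7-day cGAS-KO libraries Cxcl12 came first with 33.4 ± 8.01 CPM per kb, and its libraries overlapped those of Cxcl14 at 29.3 ± 2.52 CPM per kb. The ligands below this constitutive pair changed places between groups. In 14-day WT libraries Cxcl5 (21.3 ± 18.0 CPM per kb) and Cxcl10 (18.1 ± 3.54 CPM per kb) overlapped each other and stood above Cxcl12 (11.9 ± 0.459 CPM per kb). Cxcl16 followed the constitutive pair in 7-day cGAS-KO with 15.3 ± 2.75 CPM per kb, and in 7-day STING-KO it stood at 15.9 ± 0.132 CPM per kb. That was above Cxcl12 at 14.4 ± 1.07 CPM per kb, an order that the length of the longest transcript reversed. In 7-day WT libraries the step below Cxcl12 (9.31 ± 0.0445 CPM per kb) was wide, with Cxcl16 at 0.437 ± 0.0912, Cxcl5 at 0.263 ± 0.139 and Cxcl10 at 0.0714 ± 0.00467 CPM per kb. Cxcl2 ranked last or next to last in every group, never above 0.268 ± 0.341 CPM per kb.

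**Figure D1:**
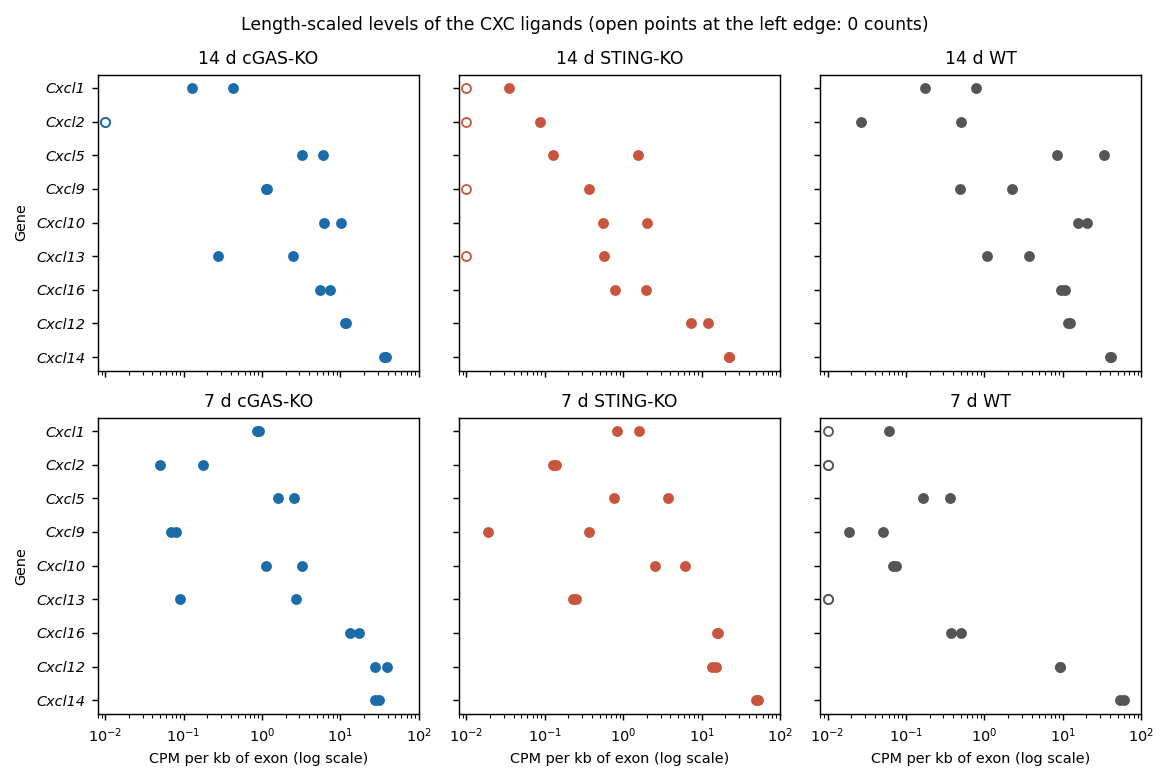
Each panel is 1 group, with the 9 ligands down the page and their level in CPM per kilobase of exon on a log scale; each point is 1 library, and open points at the left edge are libraries with 0 counts. Cxcl14 and Cxcl12 lie between 9.31 and 56.8 CPM per kb as group means in every panel. Most means of the inducible ligands lie below, but they reach 21.3 CPM per kb in 14-day WT libraries. Cxcl16 is at 15.3 CPM per kb in 7-day cGAS-KO and 15.9 CPM per kb in 7-day STING-KO libraries.

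Among the neutrophil ligands, Cxcl5 was the most abundant and Cxcl1 and Cxcl2 were scarce. Cxcl5 had 11.3 and 6.10 CPM in 14-day cGAS-KO, 0.240 and 2.87 CPM in 14-day STING-KO, 63.4 and 15.9 CPM in 14-day WT, 3.02 and 4.73 CPM in 7-day cGAS-KO, 1.43 and 6.99 CPM in 7-day STING-KO and 0.673 and 0.307 CPM in 7-day WT libraries. Both 14-day WT libraries lay above all others, and neither they nor the 14-day cGAS-KO libraries overlapped the 14-day STING-KO libraries. With edgeR's quasi-likelihood test, adjusted over all 19822 genes tested, Cxcl5 was lower in 14-day STING-KO than in 14-day WT libraries (log2 change -4.70 ± 0.91 SE, adjusted p = 0.00272). It was higher at 14 than at 7 days in WT (6.34 ± 1.06, adjusted p = 0.00069). The difference between 14-day cGAS-KO and STING-KO libraries was 2.52 ± 0.96 (adjusted p = 0.0615) and did not pass, but did with only the libraries compared (0.0499). The difference between 14-day cGAS-KO and WT libraries was -2.18 ± 0.72 (adjusted p = 0.33) and did not pass, and it was -0.88 without 14-day WT replicate 1. Nor did the 7-day differences from WT, 3.0 ± 1.26 in cGAS-KO (adjusted p = 0.0682) and 3.13 ± 1.24 in STING-KO (adjusted p = 0.0573), although the libraries did not overlap. The STING-KO difference passed without 7-day STING-KO replicate 1 (3.73, adjusted p = 0.0282). Both passed under DESeq2 (cGAS-KO 0.0356, STING-KO 0.0285), with only the libraries compared (0.00291 and 0.0432) and with the legacy quasi-likelihood fit (0.0438 and 0.0369). Without 14-day STING-KO replicate 2 the 14-day STING-KO difference was -7.34. In these bulk libraries, fewer cells of a type and less RNA per cell cannot be told apart, here and below.

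Cxcl1 was highest in the 7-day libraries of both knockout labels. It had 0.801 and 0.237 CPM in 14-day cGAS-KO, 0 and 0.0651 CPM in 14-day STING-KO, 1.46 and 0.329 CPM in 14-day WT, 1.69 and 1.60 CPM in 7-day cGAS-KO, 1.55 and 3.02 CPM in 7-day STING-KO and 0.112 and 0 CPM in 7-day WT libraries. The 4 knockout libraries of 7 days lay above all others, and the 14-day STING-KO and 7-day WT libraries were at or under the value of 3 counts. At 7 days the pooled count was 59 in cGAS-KO and 84 in STING-KO against 2 in WT libraries, ratios of 30.6 (95% exact interval 8.11 to 259) and 43.2 (11.6 to 363) that cover counting error only. Both passed the edgeR test (4.77 ± 1.11, adjusted p = 0.00267, and 5.26 ± 1.04, adjusted p = 0.000806). Without 7-day WT replicate 1, which held the only 2 WT counts, WT is at 0 and no fold is given (adjusted p = 0.0152 and 0.00743). At 14 days 1 count in STING-KO stood against 31 in WT libraries, a ratio of 0.0356 (95% exact interval 0.000873 to 0.214; log2 change -4.54 ± 1.49, adjusted p = 0.0298). That call was lost without STING-KO replicate 1 (adjusted p = 0.162) or 2 (0.0685) or WT replicate 1 (0.264). Cxcl1 was lower at 14 than at 7 days in STING-KO (-5.92 ± 1.19, adjusted p = 0.000771) and higher in WT (3.88 ± 1.28, adjusted p = 0.0246). The WT rise no longer passed without 14-day replicate 1 (2.44, adjusted p = 0.292), 7-day replicate 1 (0.0599) or 7-day replicate 2 (2.85, 0.174). In cGAS-KO the difference between the times was -1.63 ± 0.68 (adjusted p = 0.0828), with no overlap between the libraries.

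Cxcl2 did not pass the filter on low counts and was not tested. Its counts were 0 and 0 in 14-day cGAS-KO, 3 and 0 in 14-day STING-KO, 18 and 1 in 14-day WT, 6 and 2 in 7-day cGAS-KO, 5 and 5 in 7-day STING-KO and 0 and 0 in 7-day WT libraries. A single library, 14-day WT replicate 1 at 1.05 CPM, was well above the rest, and it was also the highest for Cxcl5. Without that library no other stood above 6 counts, so no fold is given. Of its 2159 windows of 50 bases 126 also occur in Cxcl3, a ligand of the same receptor, so a few of its reads may be split between them.

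Cxcr2 and the summed neutrophil markers were both low in 14-day STING-KO and 7-day WT libraries, while in 14-day cGAS-KO Cxcr2 was low and the sum was not. Cxcr2 had 0.178 and 0.237 CPM in 14-day cGAS-KO, 0.0600 and 0 CPM in 14-day STING-KO, 2.22 and 0.713 CPM in 14-day WT, 0.663 and 0.103 CPM in 7-day cGAS-KO, 0.172 and 0.955 CPM in 7-day STING-KO and 0 and 0 CPM in 7-day WT libraries. It was lower in 14-day STING-KO than in 14-day WT libraries (-5.26 ± 1.39, adjusted p = 0.0131). Of 6 neutrophil markers 4 were tested. At 7 days 4 were higher in cGAS-KO and 3 in STING-KO than in WT libraries, and at 14 days 1 was lower in cGAS-KO and 3 in STING-KO. Their summed level was 142 to 163 CPM in 14-day cGAS-KO, 11.2 to 37.4 CPM in 14-day STING-KO, 141 to 146 CPM in 14-day WT, 128 to 163 CPM in 7-day cGAS-KO, 109 to 151 CPM in 7-day STING-KO and 7.67 to 9.20 CPM in 7-day WT libraries. Csf3r, the receptor of a granulocyte growth factor, made up most of that sum, with means of 152 CPM in 14-day cGAS-KO, 23.0 CPM in 14-day STING-KO and 131 CPM in 14-day WT libraries. The other 5 markers averaged 0 to 0.508 CPM in 14-day cGAS-KO, against 0 to 4.56 CPM in 14-day WT libraries. Ly6g, which defines neutrophils, was at 0 in all 14-day groups and in 7-day WT, and Mmp8 was at 0 in 14-day cGAS-KO. What neutrophil content contributed to the ligand differences was not tested. The counts of called markers here and below stand beside these shares of all genes called in comparisons with WT libraries. At 7 days 27.8% were higher in cGAS-KO and 26.3% in STING-KO. At 14 days 0.0303% were lower in cGAS-KO and 17.4% in STING-KO.

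Cxcl10, of the interferon-inducible pair, had the widest range of group means among the 7 ligands with counts in every group. Its CPM was 13.8 and 23.0 in 14-day cGAS-KO, 1.26 and 4.56 in 14-day STING-KO, 46.4 and 35.1 in 14-day WT, 7.30 and 2.52 in 7-day cGAS-KO, 5.79 and 13.8 in 7-day STING-KO and 0.168 and 0.153 in 7-day WT libraries. The 14-day WT libraries were the highest and the 7-day WT libraries the lowest, with no overlap with any other group, while the 14-day cGAS-KO libraries stood between WT and STING-KO. At 14 days Cxcl10 was lower in STING-KO than in WT libraries (-3.82 ± 0.58, adjusted p = 0.000572) and higher in cGAS-KO than in STING-KO libraries (2.68 ± 0.59, adjusted p = 0.00482; without 14-day STING-KO replicate 1, 2.01 with adjusted p = 0.0527). The 14-day difference of cGAS-KO from WT libraries, -1.15 ± 0.48, did not pass (adjusted p = 0.411). At 7 days it was higher than in WT in both cGAS-KO (4.85 ± 1.06, adjusted p = 0.0025) and STING-KO libraries (5.88 ± 0.96, adjusted p = 0.000366), where WT held 6 counts in all against 170 and 362. The change between the times differed in direction. Cxcl10 was higher at 14 days in WT (7.93 ± 0.87, adjusted p = 3.74e-05) and in cGAS-KO (1.93 ± 0.54, adjusted p = 0.0197), and lower in STING-KO (-1.78 ± 0.60, adjusted p = 0.0254). The cGAS-KO rise was lost without 14-day replicate 2 (adjusted p = 0.114) or 7-day replicate 2 (0.14) and with no filter on low counts (0.0861). The STING-KO fall was lost without 14-day replicate 1 (0.2) or 7-day replicate 2 (0.246), with no filter (0.1) or with only the libraries compared (0.0688). It was -2.98 without 14-day replicate 2. Cxcl10 overlaps Art3 on the opposite strand in 133 of 2252 exon bases, and the strand setting of the counting is not given in the sources used here. Art3 lay between 2.90 and 7.14 CPM, above Cxcl10 in the 7-day WT libraries. It was also above Cxcl10 in 14-day STING-KO replicate 1 (7.14 against 1.26 CPM) and 7-day cGAS-KO replicate 2 (3.60 against 2.52 CPM).

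In cGAS-KO and WT libraries Cxcl9 was detected mainly at 14 days. It had 3.47 and 3.41 CPM in 14-day cGAS-KO, 0 and 1.11 CPM in 14-day STING-KO, 1.46 and 6.86 CPM in 14-day WT, 0.241 and 0.206 CPM in 7-day cGAS-KO, 0.0574 and 1.11 CPM in 7-day STING-KO and 0.0561 and 0.153 CPM in 7-day WT libraries. The 14-day cGAS-KO libraries fell between the 2 WT libraries of that time, and the 14-day and 7-day libraries did not overlap in cGAS-KO or in WT. In STING-KO they overlapped, and the difference between the times did not pass the edgeR test (-0.17 ± 1.29, adjusted p = 0.919). Cxcl9 was higher at 14 than at 7 days in cGAS-KO (3.91 ± 1.07, adjusted p = 0.0166) and in WT (5.21 ± 1.20, adjusted p = 0.00401), with pooled counts of 150 against 8 and of 150 against 4. The cGAS-KO call was lost without 14-day replicate 1 (adjusted p = 0.0587) or 7-day replicate 1 (0.0982) or 2 (0.095), and the WT call without 14-day replicate 2 (0.0565). At 14 days it was lower in STING-KO than in WT libraries (-2.96 ± 0.92, adjusted p = 0.0258) and higher in cGAS-KO than in STING-KO (2.67 ± 0.93, adjusted p = 0.0404). The first of these did not pass without STING-KO replicate 1 (adjusted p = 0.161) or WT replicate 2 (0.327), under DESeq2 (0.0502), with no filter (0.0665), with only the libraries compared (0.101) or with the legacy quasi-likelihood fit (0.0713). The second did not pass without STING-KO replicate 1 (0.233) or cGAS-KO replicate 1 (0.1) or 2 (0.101), under DESeq2 (0.0786), with no filter (0.0971) or with the legacy fit (0.0944). Without STING-KO replicate 2, the library with counts, STING-KO is at 0 and no fold is given (adjusted p = 0.0128 and 0.0171). At 7 days the differences from WT were 1.01 ± 2.20 in cGAS-KO (adjusted p = 0.731) and 2.42 ± 1.76 in STING-KO libraries (adjusted p = 0.274), neither of which passed.

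Cxcr3, the receptor of Cxcl9 and Cxcl10, had 0.267 and 1.23 CPM in 14-day cGAS-KO, 0.120 and 0.781 CPM in 14-day STING-KO, 2.63 and 1.48 CPM in 14-day WT, 1.57 and 0.926 CPM in 7-day cGAS-KO, 1.49 and 1.01 CPM in 7-day STING-KO and 0.112 and 0.102 CPM in 7-day WT libraries. It was higher than in WT in the 7-day cGAS-KO (3.44 ± 1.0, adjusted p = 0.0117) and STING-KO libraries (3.46 ± 0.99, adjusted p = 0.0115). All 6 T cell markers were tested. At 7 days 1 was higher in cGAS-KO and 3 in STING-KO than in WT libraries, and at 14 days none was called in cGAS-KO while 5 were lower and 1 higher in STING-KO. All 6 were higher at 14 than at 7 days in WT. Their sum was 19.4 to 38.1 CPM in 14-day cGAS-KO, 29.3 to 44.3 CPM in 14-day STING-KO, 24.0 to 24.5 CPM in 14-day WT, 7.97 to 9.71 CPM in 7-day cGAS-KO, 7.57 to 13.2 CPM in 7-day STING-KO and 2.19 to 2.51 CPM in 7-day WT libraries, with Cd3d at 0 in 7-day WT. Cd4 made up most of the sum in 14-day knockout libraries, with means of 20.8 CPM in cGAS-KO and 34.8 CPM in STING-KO, against 9.58 CPM in WT. Cd4 was the marker called higher in 14-day STING-KO, and the 5 called lower included Trbc2 (0.636 CPM against 5.19 CPM in WT) and Cd8a (0.912 CPM against 4.97 CPM). Their part in the ligand differences was not tested.

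Cxcl13, the B cell ligand, was carried by few libraries. It had 0.311 and 2.89 CPM in 14-day cGAS-KO, 0.660 and 0 CPM in 14-day STING-KO, 1.23 and 4.28 CPM in 14-day WT, 3.08 and 0.103 CPM in 7-day cGAS-KO, 0.287 and 0.265 CPM in 7-day STING-KO and 0 and 0 CPM in 7-day WT libraries. Replicates of 1 group differed by more than most groups did, and the 14-day cGAS-KO and WT libraries overlapped. With 0 counts in both 7-day WT libraries a fold change is only a lower bound. It sets the group mean against 3 counts per library and leaves out the spread between replicates. Cxcl13 was at least 17.1-fold higher in 14-day than in 7-day WT libraries, at least 9.88-fold higher in 7-day cGAS-KO and at least 1.71-fold higher in 7-day STING-KO than in 7-day WT. The cGAS-KO bound rests on replicate 1, with 51 counts, since replicate 2 had 2 counts and lay under the floor. The 14-day WT bound rests mostly on replicate 2, with 78 counts against 21 in replicate 1. Only the WT time comparison passed the edgeR test (adjusted p = 0.0326). It did not pass without 14-day replicate 2 (adjusted p = 0.17), 7-day replicate 1 (0.103) or 7-day replicate 2 (0.123), or with no filter (0.185). The 7-day cGAS-KO difference (adjusted p = 0.0785) passed without cGAS-KO replicate 2 (0.0227), under DESeq2 (0.00814) and with the legacy fit (0.0389), and the 7-day STING-KO difference passed with only the libraries compared (0.0456). Cxcr5 had too few counts to be tested. Of 5 B cell markers 3 were tested, of which 3 were higher in cGAS-KO and 1 in STING-KO than in WT libraries at 7 days, and none was called in either at 14 days. The 5 summed to 1.56 to 4.35 CPM in 14-day cGAS-KO, 0.360 to 1.63 CPM in 14-day STING-KO, 2.20 to 2.57 CPM in 14-day WT, 5.04 to 11.8 CPM in 7-day cGAS-KO, 2.47 to 4.87 CPM in 7-day STING-KO and 0.818 to 1.18 CPM in 7-day WT libraries. None of the 5 was at 0 in any group, and their part in the Cxcl13 values was not tested.

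Cxcl16 was abundant in the 7-day libraries of both knockout labels and low in 14-day STING-KO and 7-day WT libraries. It had 16.7 and 22.0 CPM in 14-day cGAS-KO, 2.40 and 5.86 CPM in 14-day STING-KO, 28.3 and 32.5 CPM in 14-day WT, 52.2 and 40.5 CPM in 7-day cGAS-KO, 47.9 and 48.5 CPM in 7-day STING-KO and 1.51 and 1.13 CPM in 7-day WT libraries. The 7-day cGAS-KO and STING-KO libraries overlapped, and otherwise no pair of groups did. At 7 days Cxcl16 was higher than in WT in cGAS-KO (5.13 ± 0.36, adjusted p = 7.36e-07) and in STING-KO libraries (5.19 ± 0.36, adjusted p = 6.34e-07). At 14 days it was lower in STING-KO than in WT (-2.89 ± 0.32, adjusted p = 9.17e-05) and higher in cGAS-KO than in STING-KO (2.24 ± 0.32, adjusted p = 0.000457). The 14-day cGAS-KO difference from WT, -0.65 ± 0.27, did not pass (adjusted p = 0.406). Between the times it was higher at 14 days in WT (4.53 ± 0.36, adjusted p = 5.39e-06) and lower in STING-KO (-3.55 ± 0.32, adjusted p = 3.45e-06) and cGAS-KO (-1.26 ± 0.27, adjusted p = 0.00479; without 14-day replicate 1, -1.07 with 0.0625). Zmynd15 overlaps Cxcl16 on the opposite strand in 552 of 3021 exon bases and ran from 0.480 to 14.1 CPM, lowest in a 14-day STING-KO library and highest in a 7-day cGAS-KO library, so part of either count may come from the other gene.

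Cxcr6, the receptor of Cxcl16 on T cells, was lower in 14-day STING-KO than in 14-day WT libraries (0.120 and 0.391 CPM against 3.62 and 1.54 CPM; -3.32 ± 0.74, adjusted p = 0.00423). At 7 days its differences from WT did not pass (cGAS-KO 1.90 ± 1.22, adjusted p = 0.215; STING-KO 2.49 ± 1.11, adjusted p = 0.0806). Adam10, the sheddase of Cxcl16, was higher than in WT in 7-day cGAS-KO (1.17 ± 0.14, adjusted p = 2.96e-05) and STING-KO libraries (1.18 ± 0.14, adjusted p = 2.87e-05), and Adam17, a related sheddase, by 2.62 ± 0.15 and 2.65 ± 0.15 (adjusted p = 2.75e-07 and 1.92e-07). Most myeloid markers were higher than in WT at 7 days under both knockout labels and lower in 14-day STING-KO, as Cxcl16 was. Over time in cGAS-KO, where Cxcl16 fell, 5 of 6 markers of monocytes and macrophages were lower. Of 6 microglial markers 1 was higher and 1 lower in that comparison. Of 6 markers of monocytes and macrophages, 6 were higher in cGAS-KO and 5 in STING-KO than in WT libraries at 7 days, and 1 was lower in cGAS-KO and 6 in STING-KO at 14 days. They summed to 364 to 391 CPM in 14-day cGAS-KO, 26.2 to 95.5 CPM in 14-day STING-KO, 603 to 919 CPM in 14-day WT, 4133 to 4734 CPM in 7-day cGAS-KO, 4548 to 5316 CPM in 7-day STING-KO and 6.70 to 19.3 CPM in 7-day WT libraries. All 6 microglial markers were higher in both knockout labels at 7 days and lower in STING-KO at 14 days. Their sums were 1612 to 1693 CPM in 14-day cGAS-KO, 491 to 912 CPM in 14-day STING-KO, 1905 to 2108 CPM in 14-day WT, 2088 to 2367 CPM in 7-day cGAS-KO, 2719 to 2976 CPM in 7-day STING-KO and 253 to 264 CPM in 7-day WT libraries. No marker of either list was at 0 in any group, and their part in the Cxcl16 values was not tested.

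**Figure D2:**
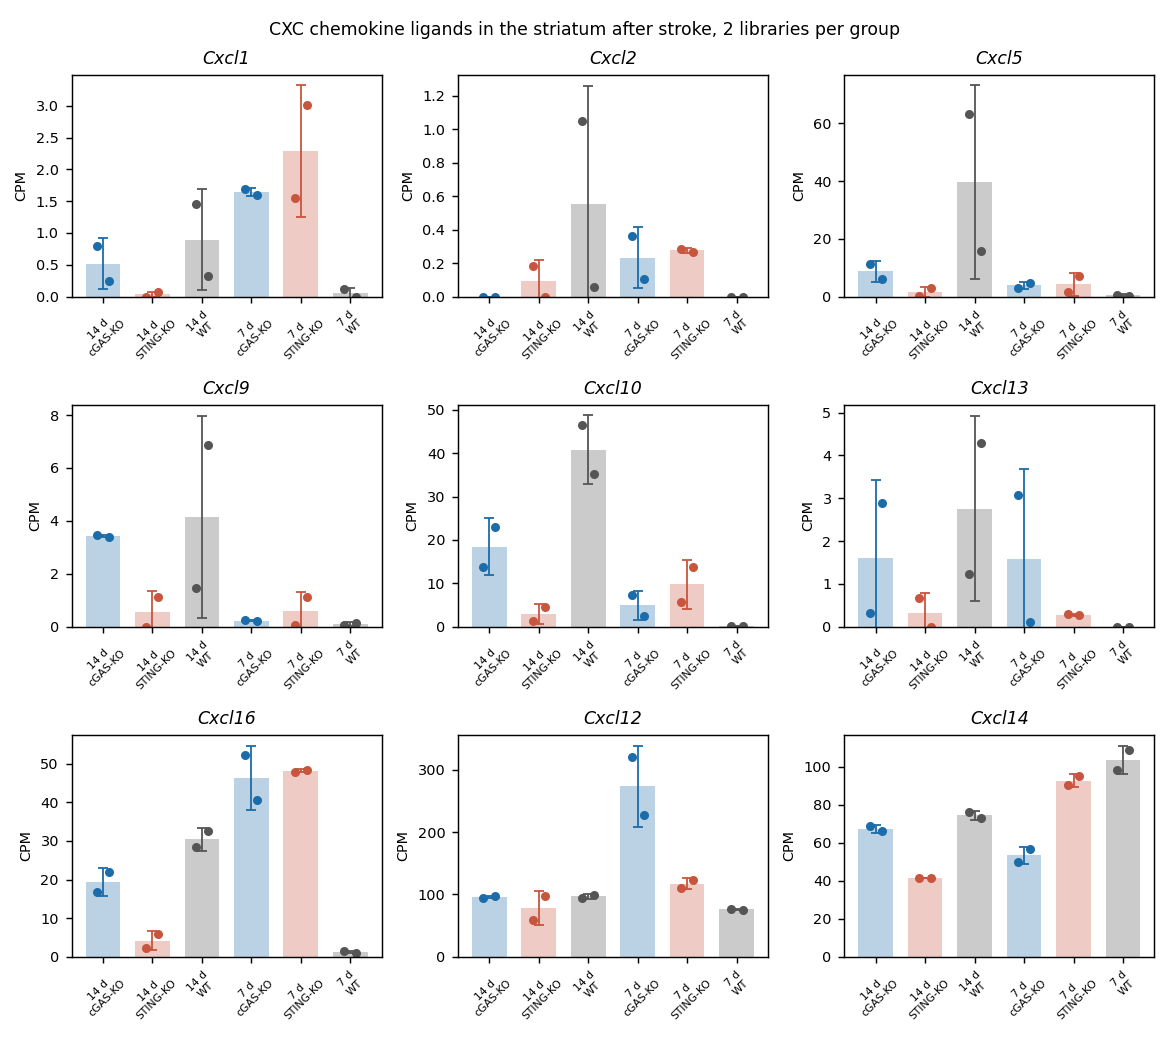
Each panel shows 1 ligand, with CPM on the vertical axis and the 6 groups on the horizontal; points are libraries, bars are means of 2 libraries and error bars are 1 SD, cut at 0. Cxcl5, Cxcl9 and Cxcl10 are highest in 14-day WT libraries (means 39.6, 4.16 and 40.8 CPM), Cxcl1 and Cxcl16 in 7-day STING-KO (2.28 and 48.2 CPM), Cxcl12 in 7-day cGAS-KO (273 CPM) and Cxcl14 in 7-day WT libraries (104 CPM).

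The group means of the constitutive ligands lay closer together. Cxcl12 had 94.4 and 97.0 CPM in 14-day cGAS-KO, 59.7 and 97.7 CPM in 14-day STING-KO, 94.5 and 99.8 CPM in 14-day WT, 319 and 227 CPM in 7-day cGAS-KO, 111 and 124 CPM in 7-day STING-KO and 76.4 and 75.9 CPM in 7-day WT libraries. The 7-day cGAS-KO libraries stood above all others, and the 3 groups of 14 days overlapped. Cxcl12 was higher in 7-day cGAS-KO than in 7-day WT libraries (1.84 ± 0.22, adjusted p = 3.16e-05) and lower at 14 than at 7 days in cGAS-KO (-1.51 ± 0.22, adjusted p = 0.000462). Its difference between 7-day cGAS-KO and STING-KO libraries, 1.22 ± 0.22, did not pass (adjusted p = 0.067), but did under DESeq2 (0.00034), with no filter (0.015) and without cGAS-KO replicate 2 (0.0191). The smaller rise in 7-day STING-KO over WT libraries (0.62 ± 0.22, adjusted p = 0.0311) was lost on leaving out each of the 4 libraries in turn (adjusted p 0.105 to 0.159). The lower level at 14 than at 7 days in STING-KO (-0.58 ± 0.22, adjusted p = 0.0385) was lost without 14-day replicate 1 (-0.26, 0.279), 7-day replicate 1 (0.0681) or 2 (0.15) or with only the libraries compared (0.119). It was -0.99 without 14-day replicate 2. At 14 days the differences from WT were -0.02 ± 0.21 in cGAS-KO (adjusted p = 0.983) and -0.30 ± 0.22 in STING-KO (adjusted p = 0.302). Without STING-KO replicate 2 the STING-KO difference was -0.72 and passed (0.0153), as did cGAS-KO against STING-KO (0.69, adjusted p = 0.0172).

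Markers of cells known to make Cxcl12 were higher in the 7-day libraries of both knockout labels than in 7-day WT. Sums of fibroblast, endothelial, and pericyte and smooth muscle markers were highest in 7-day cGAS-KO, as Cxcl12 was, without overlap with 7-day STING-KO. Choroid plexus sums overlapped between these labels, and no marker of these lists was called between them at 7 days. All 6 fibroblast markers were higher in cGAS-KO and in STING-KO than in WT libraries at 7 days, and 5 were lower in STING-KO at 14 days. They summed to 139 to 150 CPM in 14-day cGAS-KO, 120 to 122 CPM in 14-day STING-KO, 142 to 403 CPM in 14-day WT, 2935 to 4534 CPM in 7-day cGAS-KO, 1655 to 2009 CPM in 7-day STING-KO and 93.7 to 101 CPM in 7-day WT libraries. Of 5 endothelial markers, 5 were higher in cGAS-KO and 4 in STING-KO at 7 days and 2 were lower in STING-KO at 14 days. These summed to 259 to 312 CPM in 14-day cGAS-KO, 173 to 217 CPM in 14-day STING-KO, 261 to 346 CPM in 14-day WT, 392 to 729 CPM in 7-day cGAS-KO, 323 to 373 CPM in 7-day STING-KO and 156 to 162 CPM in 7-day WT libraries. Of 5 markers of pericytes and smooth muscle, 5 were higher in each knockout label at 7 days and none was called at 14 days. Their sum was 190 to 215 CPM in 14-day cGAS-KO, 173 to 213 CPM in 14-day STING-KO, 188 to 209 CPM in 14-day WT, 415 to 681 CPM in 7-day cGAS-KO, 272 to 387 CPM in 7-day STING-KO and 111 to 123 CPM in 7-day WT libraries. Choroid plexus markers, a sign of tissue beyond the striatum, were 5 of 5 higher in each knockout label at 7 days. Their sum was 86.7 to 283 CPM in 14-day cGAS-KO, 237 to 660 CPM in 14-day STING-KO, 52.3 to 371 CPM in 14-day WT, 2477 to 4410 CPM in 7-day cGAS-KO, 2745 to 4416 CPM in 7-day STING-KO and 54.9 to 112 CPM in 7-day WT libraries. Erythrocyte genes, a sign of blood in the tissue, were 5 of 5 higher than in WT in 7-day cGAS-KO and 0 of 5 called in 7-day STING-KO, and 2 were higher in 7-day cGAS-KO than in STING-KO libraries. They summed to 143 to 255 CPM in 14-day cGAS-KO, 54.6 to 152 CPM in 14-day STING-KO, 98.1 to 344 CPM in 14-day WT, 707 to 867 CPM in 7-day cGAS-KO, 49.7 to 88.3 CPM in 7-day STING-KO and 42.1 to 84.8 CPM in 7-day WT libraries. No marker of these 5 lists was at 0 in any group. Their part in the Cxcl12 values was not tested.

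Cxcl14 ran in another order from the other ligands, highest in 7-day WT and lowest in 14-day STING-KO libraries. It had 68.9 and 66.0 CPM in 14-day cGAS-KO, 41.4 and 41.4 CPM in 14-day STING-KO, 76.2 and 72.9 CPM in 14-day WT, 50.2 and 56.7 CPM in 7-day cGAS-KO, 90.6 and 95.1 CPM in 7-day STING-KO and 98.5 and 109 CPM in 7-day WT libraries. No pair of groups overlapped. At 7 days Cxcl14 was lower in cGAS-KO than in WT libraries (-0.96 ± 0.13, adjusted p = 6.76e-05), whereas the STING-KO difference was -0.16 ± 0.13 and did not pass (adjusted p = 0.309). The direct comparison of 7-day cGAS-KO with STING-KO libraries was -0.80 ± 0.13 (adjusted p = 0.0401). That call did not hold without cGAS-KO replicate 1 (adjusted p = 0.376) or STING-KO replicate 1 (0.139) or 2 (0.174), with only the libraries compared (0.218), with the legacy fit (0.0611) or with the 14-day STING-KO and 7-day WT groups left out of the fit (0.0734). At 14 days Cxcl14 was lower in STING-KO than in WT libraries (-0.85 ± 0.13, adjusted p = 0.000511) and higher in cGAS-KO than in STING-KO (0.70 ± 0.13, adjusted p = 0.00166). The 14-day cGAS-KO difference from WT was -0.14 ± 0.13 and did not pass (adjusted p = 0.704). It was lower at 14 than at 7 days in STING-KO (-1.17 ± 0.13, adjusted p = 1.54e-05) and in WT (-0.48 ± 0.13, adjusted p = 0.00926; without 7-day replicate 2, -0.45 with 0.0633). In cGAS-KO the difference was 0.34 ± 0.13 (adjusted p = 0.0645; under DESeq2, 0.048). Of 5 astrocyte markers, 4 were higher in each knockout label at 7 days and 4 were lower in STING-KO at 14 days. The sums were 5108 to 5650 CPM in 14-day cGAS-KO, 1578 to 1904 CPM in 14-day STING-KO, 4259 to 7760 CPM in 14-day WT, 3731 to 4367 CPM in 7-day cGAS-KO, 3691 to 7064 CPM in 7-day STING-KO and 1269 to 1378 CPM in 7-day WT libraries. None of the 5 was at 0 in any group. The neuronal sums given above also differed between these groups, and the part of either in the Cxcl14 values was not tested.

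The counts below describe only the 8 ligands that passed the filter on low counts. A gene that passed through 1 group where it is high had to differ, so they are no test of the family. At 7 days 4 of 8 were higher (Cxcl1, Cxcl10, Cxcl12 and Cxcl16) and 1 lower (Cxcl14) in cGAS-KO than in WT libraries, where 50.3% of all 19822 genes were called, 27.8% higher and 22.4% lower. In 7-day STING-KO against the same WT libraries the same 4 were higher and none lower, with the Cxcl12 call lost on leaving out each library as given above, where 48.9% of all genes were called, 26.3% higher and 22.6% lower. Both comparisons rest on the same pair of 7-day WT libraries. The median log2 change of the 8 was 3.89 in cGAS-KO (3.15 with Cxcl13 at its bound) and 4.16 in STING-KO (2.77 with Cxcl13 at its bound), beside medians of 0.04 and 0.03 over all genes.

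At 14 days 0 of 8 ligands were called between cGAS-KO and WT libraries, as against 0.0303% of all genes. With no adjustment 3 of 8 had p below 0.05 (Cxcl5, Cxcl10 and Cxcl16, all with lower values in cGAS-KO, the Cxcl5 value being -0.88 without 14-day WT replicate 1), where 11% of all genes did, and DESeq2 called 0 of 8. The median of the 8 was -0.69, beside -0.01 over all genes. In 14-day STING-KO against the same WT libraries 6 of 8 were lower (Cxcl1, Cxcl5, Cxcl9, Cxcl10, Cxcl14 and Cxcl16) and none higher, where 33.9% of all genes were called, 16.5% higher and 17.4% lower. The median was -2.98, beside -0.03 over all genes. The labelled knockouts compared directly gave 1 of 8 lower in cGAS-KO (Cxcl14) and none higher at 7 days, where 0.161% of all genes were called, 0.0858% higher and 0.0757% lower. At 14 days 4 were higher in cGAS-KO (Cxcl9, Cxcl10, Cxcl14 and Cxcl16) and none lower, where 35.9% of all genes were called, 18.2% higher and 17.7% lower.

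**Figure D3:**
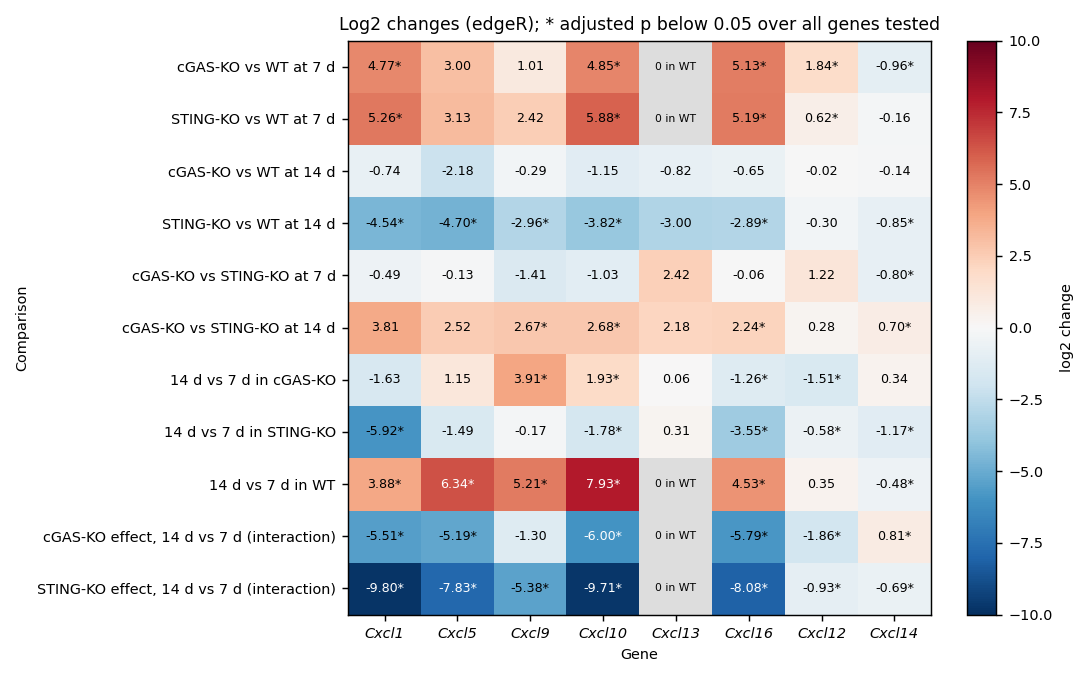
Log2 changes of the 8 tested ligands (columns) in 11 comparisons (rows) from edgeR, red where the first-named group is higher and blue where it is lower; an asterisk marks adjusted p below 0.05 over all genes, and grey cells are Cxcl13 against 7-day WT libraries, which had 0 counts. For STING-KO against WT, Cxcl16 is at -2.89 at 14 days and at 5.19 at 7 days, and the cGAS-KO against WT row at 14 days holds no asterisk.

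The change between 7 and 14 days differed with the genotype label. In WT libraries 6 of 8 ligands were higher at 14 than at 7 days (Cxcl1, Cxcl5, Cxcl9, Cxcl10, Cxcl13 and Cxcl16) and 1 lower (Cxcl14), where 43.9% of all genes were called, 24.1% higher and 19.7% lower. In STING-KO none was higher and 5 were lower (Cxcl1, Cxcl10, Cxcl12, Cxcl14 and Cxcl16), with 56.9% of all genes called, 27.4% higher and 29.5% lower. In cGAS-KO 2 were higher (Cxcl9 and Cxcl10) and 2 lower (Cxcl12 and Cxcl16), with 30.4% of all genes called, 13.4% higher and 17% lower. The median of the 8 was 4.87 in WT (4.31 with Cxcl13 at its bound), -1.33 in STING-KO and 0.20 in cGAS-KO. The difference itself was tested as an interaction, the knockout effect at 14 days minus that at 7 days. For cGAS-KO it called 5 of 8 ligands lower and 1 higher, where 36.7% of all genes were called, 15.7% higher and 21% lower. For STING-KO it called 7 of 8 lower and none higher, where 51.9% of all genes were called, 24.3% higher and 27.6% lower. Both of these share the WT libraries of the 2 times, and the 7-day WT libraries carried markers of another brain region, as given above. The 7-day libraries of both knockout labels carried high choroid plexus and fibroblast markers, also given above.

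Among the other CXC ligands, Pf4, a platelet and macrophage ligand, and Ppbp, a platelet ligand of Cxcr2, were tested, while Cxcl3, Cxcl11, Cxcl15 and Cxcl17 had too few counts. Pf4 was higher than in WT in 7-day cGAS-KO (6.38 ± 0.56, adjusted p = 3.26e-06) and STING-KO libraries (6.46 ± 0.56, adjusted p = 2.94e-06), and lower in 14-day STING-KO (-2.72 ± 0.76, adjusted p = 0.0168). Ppbp was also called higher in 7-day cGAS-KO and lower in 14-day STING-KO, but was not called in 7-day STING-KO libraries. Of 10 CXC and atypical receptors 8 were tested. At 7 days 3 were higher and 1 lower in cGAS-KO, and 4 higher and 1 lower in STING-KO, than in WT libraries. Of all genes 50.3% and 48.9% were called in these comparisons, so the counts do not set the receptors apart. At 14 days no receptor was called in cGAS-KO, and 2 were higher and 4 lower in STING-KO, where 16.5% of all genes were higher and 17.4% lower. Cxcr4, the Cxcl12 receptor of leukocytes and microglia, had 15.9 and 15.04 CPM in 14-day cGAS-KO, 7.32 and 4.43 CPM in 14-day STING-KO, 26.2 and 18.5 CPM in 14-day WT, 43.1 and 39.7 CPM in 7-day cGAS-KO, 46.1 and 52.7 CPM in 7-day STING-KO and 2.24 and 0.870 CPM in 7-day WT libraries. It was higher than in WT by 4.75 ± 0.35 in 7-day cGAS-KO and 5.0 ± 0.35 in 7-day STING-KO (adjusted p = 1.03e-06 and 6.67e-07). Ackr3, which takes up Cxcl12 without G protein signalling, was called in no comparison. Ackr1, the venular receptor that carries several CXC ligands across endothelium, ran the other way, lower in 7-day cGAS-KO (-1.04 ± 0.20, adjusted p = 0.00117) and STING-KO (-0.67 ± 0.20, adjusted p = 0.0156) and higher in 14-day STING-KO (1.02 ± 0.20, adjusted p = 0.00247) than in WT libraries.

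**Figure D4:**
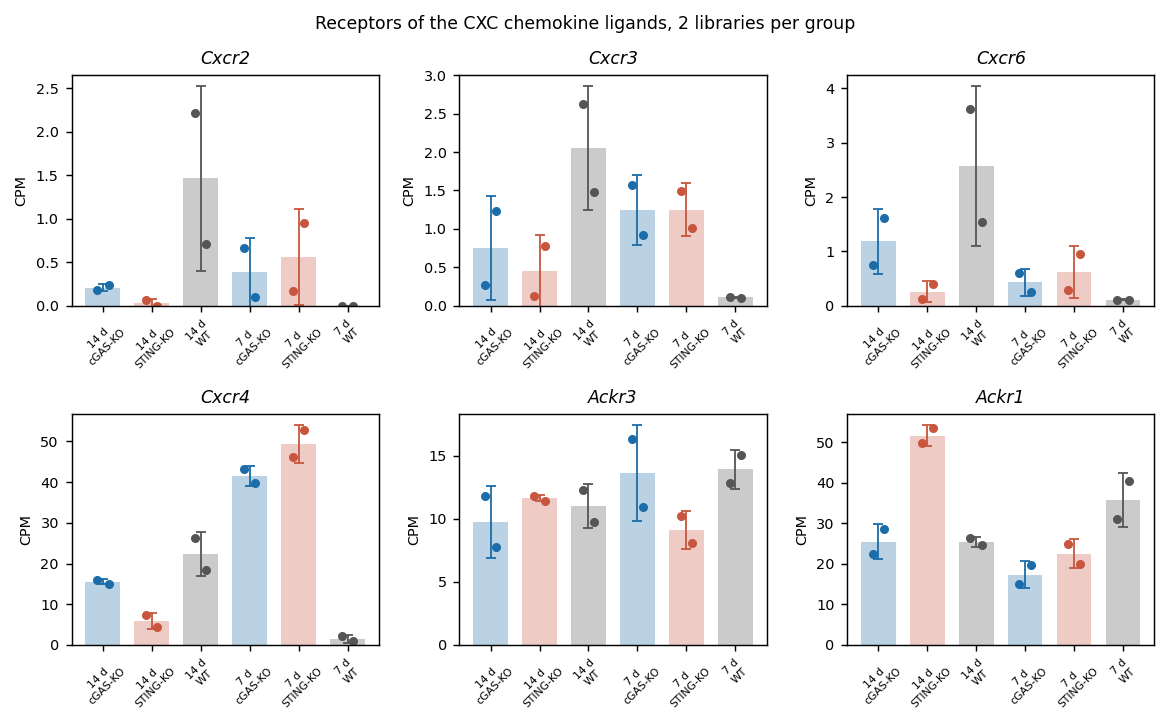
CPM of 6 receptors of the CXC ligands by group; points are libraries, bars are means of 2 libraries and error bars are 1 SD, cut at 0. Cxcr4 is highest in the 7-day cGAS-KO and STING-KO libraries (39.7 to 52.7 CPM) and lowest in 7-day WT (0.870 to 2.24 CPM), while Ackr1 is highest in 14-day STING-KO libraries.

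Genes that induce CXC ligands were called in several of the same comparisons, though not in step with every ligand. Of 20 listed cytokines, interferon and NF-kappaB signal genes 15 were tested, and Ifng, Ifnb1, Il6, Il17a and Lta were too low. All 15 were higher in cGAS-KO and 13 in STING-KO than in WT libraries at 7 days, where 27.8% and 26.3% of all genes were higher. At 14 days none of the 15 was called in cGAS-KO and 15 were lower in STING-KO, where 17.4% of all genes were lower. In WT 14 were higher at 14 than at 7 days, beside 24.1% of all genes. In cGAS-KO none was higher and 4 were lower at 14 than at 7 days, although Cxcl9 and Cxcl10 were called higher there. Of all genes 13.4% were higher and 17% lower in that comparison. Nfkb2, a subunit of NF-kappaB, rose over WT by 3.29 ± 0.25 in 7-day cGAS-KO (adjusted p = 1.33e-06) and by 3.07 ± 0.25 in 7-day STING-KO (adjusted p = 2e-06), and was lower in 14-day STING-KO (-2.09 ± 0.26, adjusted p = 0.000188). Of 6 proteases that cut or shed CXC ligands, 6 were higher in cGAS-KO and 5 in STING-KO at 7 days, while at 14 days none was called in cGAS-KO and 3 were lower in STING-KO. The shares of all genes are those given for these comparisons. Mmp12, the macrophage elastase, which cleaves ELR ligands, was higher by 7.70 ± 0.59 in cGAS-KO and 9.56 ± 0.56 in STING-KO libraries at 7 days (adjusted p = 4.89e-07 and 9.4e-08). It was the 1 listed protease called between the labels then (-1.86 ± 0.30 in cGAS-KO against STING-KO, adjusted p = 0.0383).

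The genes nearest in profile also differed between the ligands. For each ligand the genes were ranked by the root mean square difference of centred log2 CPM over the 12 libraries, among 16579 genes averaging at least 1 CPM. Cxcl16 had close companions, with Runx1 at 0.21, Neurl3 at 0.23 and Ncf4 at 0.25, although its own SD over the libraries was 1.97. Cxcl12 lay nearest to Vtn at 0.23 and Cxcl14 to Msrb2 at 0.21, against SDs of 0.65 and 0.45. Cxcl10 lay nearest to Phf11b (0.70), Cxcl1 to Tgm1 (0.64), Cxcl5 to C3 (0.85) and Cxcl9 to Cd8a (0.76), against SDs of 2.54, 2.29, 2.22 and 2.42. Cxcl13 had no near companion, with Ifit1 first at 1.53 against an SD of 2.58. Among the ligands themselves Cxcl1 and Cxcl16 lay 0.996 apart and Cxcl5 and Cxcl10 1.26 apart, under the SD of either member. Cxcl12 and Cxcl14 lay 0.87 apart, which is more than the SD of either, so the distance does not show a shared profile. The distances describe these 12 libraries, which share the groups, and ligands with few counts have larger distances from counting error alone.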

How the data were processed

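The authors deposited 1 table of raw counts by Ensembl gene ID for each library, made from polyA+ RNA sequenced on an Illumina instrument with paired reads (per the labels). Per the submitters' processing notes, HISAT2 and featureCounts were used for alignment and counting, on mm10. Tool versions, annotation release and whether counting used strand are not given in the sources used here. Symbols and coordinates are from GENCODE M21 (54409 of 54532 IDs matched), and promoters from RefSeq GRCm38.p6, with matches joined by symbol. The counts were used as deposited. Tests were run in R 4.3.3 by edgeR 4.0.16: filterByExpr (minimum count 10, minimum total 15; 19822 genes kept), TMM factors, 1 fit of 6 groups over 12 libraries (6 residual degrees of freedom), robust glmQLFit and glmQLFTest, and Benjamini-Hochberg adjustment over the genes of 1 comparison, with a threshold of 0.05. SE was taken as the size of the log2 change divided by the root of F. CPM were computed from the counts and TMM-scaled totals, and length-scaled levels divide CPM by the union of exons. The test was tried on simulated counts.

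The text names the 9 ligands, list genes with a stated role in the ligands' reception, induction or cleavage, and the genes nearest each ligand (16579 genes of at least 1 CPM, log2 with prior count 0.5). The ligands and gene lists were chosen with earlier results of these data known. Alternatives were DESeq2 1.42.0, its size factors in edgeR, a stricter filter (10 counts and 1 CPM in at least 2 libraries) or none, a fit of the compared libraries alone, a replicate block, edgeR's legacy quasi-likelihood form, and leaving out each library. The library then alone in its group is assumed to vary like those of other groups. Leaving the 14-day STING-KO and 7-day WT groups out of the fit was added after seeing the data. Replicates were compared by chi-square tests of their counts, and no pair agreed within sampling noise (chi-square per degree of freedom 7.17 to 43.9). Intervals and floors of 3 counts per library cover counting error only. Protein sequences were not analysed here. Figures used matplotlib 3.10.9 in python 3.11.15.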

Additional observations from a re-analysis of the deposited data

Results flagged for a closer look

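For 13 results the effect of a knockout label on a ligand differed between 14 and 7 days by a test of the difference itself (edgeR's quasi-likelihood test of the interaction, Benjamini-Hochberg adjusted over all genes). A negative value means that the log2 difference from WT was lower at 14 than at 7 days. For cGAS-KO the interaction was -5.51 for Cxcl1 (adjusted p = 0.0079), -5.19 for Cxcl5 (0.0143), -6.0 for Cxcl10 (0.00179), -1.86 for Cxcl12 (0.000576) and -5.79 for Cxcl16 (3.85e-06), and 0.81 for Cxcl14 (0.00381). For STING-KO it was -9.80 for Cxcl1 (adjusted p = 0.000394), -7.83 for Cxcl5 (0.00116), -5.38 for Cxcl9 (0.0358), -9.71 for Cxcl10 (1.9e-05), -0.93 for Cxcl12 (0.0233), -0.69 for Cxcl14 (0.00673) and -8.08 for Cxcl16 (1.6e-07). Under both labels Cxcl1, Cxcl10 and Cxcl16 were higher than in WT at 7 days, while at 14 days their differences from WT were negative, whether or not they passed. Of the ligands called in both, Cxcl14 was the 1 whose interaction had opposite signs.

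All 13 use the 7-day WT libraries, in which cortical and hippocampal markers were high and myeloid markers low. They also use 7-day knockout libraries, in which choroid plexus and fibroblast markers were high. What these differences contributed was not tested. Some of them also rest on single libraries. For cGAS-KO, Cxcl1 did not pass without 14-day WT replicate 1 (adjusted p = 0.113) or 7-day WT replicate 2 (0.056) and has WT at 0 at 7 days without 7-day WT replicate 1 (0.0224). Cxcl5 did not pass without 14-day WT replicate 1 (0.051), 7-day cGAS-KO replicate 2 (0.0572) or 7-day WT replicate 2 (0.0679), or with no filter (0.12). For STING-KO, Cxcl9 did not pass without 14-day STING-KO replicate 1 (0.0766), 14-day WT replicate 2 (0.096), 7-day STING-KO replicate 2 (0.744) or 7-day WT replicate 1 (0.11) or 2 (0.0918), with no filter (0.0946) or with only the libraries compared (0.0581). Without 14-day STING-KO replicate 2 it has 14-day STING-KO at 0 (0.0118). Cxcl12 did not pass without 14-day STING-KO replicate 1 (0.0608), 14-day WT replicate 1 (0.0554) or 2 (0.0977), 7-day STING-KO replicate 1 (0.057) or 2 (0.0685), or 7-day WT replicate 1 (0.071) or 2 (0.0811).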

How the results depend on the processing

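Over 88 log2 changes of the ligands, 1056 values were recomputed under the alternatives: 939 kept their direction and side of the threshold, 70 lost the call, 24 gained one and 23 changed sign, all of them from values that had not passed. DESeq2's size factors and the stricter filter changed no call. The replicate numbers did not pair the samples (correlation of same-numbered deviations -0.0733 to 0.164 over 15 pairs of groups, 1 over 0.1), and with the replicate block no count of called ligands moved; the block turned the sign of 1 value, Cxcl13 at 14 against 7 days in cGAS-KO (-0.0256, against 0.06).

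Between 7-day cGAS-KO and STING-KO libraries 1 ligand was called, against 2 under DESeq2, 2 with no filter, 0 with only the libraries compared, 0 with the legacy fit, 0 with the 14-day STING-KO and 7-day WT groups left out, and 0 to 2 leaving out 1 library. In STING-KO over time 5 were called, against 3 with only the libraries compared and 3 to 5 leaving out 1 library. Leaving out 1 library gave 2 to 5 calls between the labels at 14 days against 4 (the fifth is Cxcl12), 2 to 3 in cGAS-KO over time against 4, and 4 to 6 in WT over time against 7.

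Over all genes, cGAS-KO against WT at 14 days gave 6 calls (0 higher), 145 under DESeq2 (52 higher), 29 with no filter (5 higher) and 16 with only the libraries compared (3 higher). cGAS-KO against STING-KO at 7 days gave 32, against 263 under DESeq2, 60 with no filter, 3 with only the libraries compared, 6 with the legacy fit and 10 with the 14-day STING-KO and 7-day WT groups left out. With only the libraries compared, STING-KO against WT at 14 days gave 4221 instead of 6717, and cGAS-KO against STING-KO at 14 days 4499 instead of 7112. Leaving out 1 library gave 0 to 17 calls for cGAS-KO against WT at 14 days (14 of the 17 higher, without 14-day cGAS-KO replicate 1) and 0 to 213 for cGAS-KO against STING-KO at 7 days (191 of the 213 higher, without 7-day cGAS-KO replicate 2). It gave 4261 to 6911 for STING-KO against WT and 4654 to 7291 for cGAS-KO against STING-KO at 14 days, and over time 2967 to 4655 in cGAS-KO against 6022 and 5569 to 7475 in WT against 8693.

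Signs that turned when 1 library was left out belong to these ranges. In STING-KO against WT, Cxcl9 at 7 days ran from -0.83 to 3.23 and Cxcl12 at 14 days from -0.72 to 0.00834. In cGAS-KO against WT at 14 days, Cxcl1 ran from -1.87 to 0.66, Cxcl9 from -1.0 to 1.25, Cxcl12 from -0.0687 to 0.0342 and Cxcl13 from -3.13 to 0.37. In cGAS-KO against STING-KO at 7 days, Cxcl1 ran from -0.89 to 0.0817, Cxcl5 from -0.85 to 1.44, Cxcl9 from -2.30 to 1.84, Cxcl13 from -1.35 to 3.46 and Cxcl16 from -0.24 to 0.13; at 14 days Cxcl12 ran from -0.0300 to 0.69 and Cxcl13 from -0.13 to 7.87. Between 14 and 7 days, Cxcl13 in cGAS-KO ran from -2.25 to 3.83, and in STING-KO Cxcl5 ran from -4.13 to 0.0772, Cxcl9 from -6.50 to 3.07 and Cxcl13 from -5.39 to 1.23. The cGAS-KO interaction of Cxcl9 ran from -2.11 to 0.36. Where the libraries left in a group are at 0, the end of a range is a fitted value and no bound. The cause was not tested. The exon union was used for levels per length; with the longest transcript, 2 ligands changed rank in 7-day STING-KO.

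Depth limited Cxcl1, Cxcl2, Cxcl9, Cxcl10 and Cxcl13, which had 0 to 8 counts pooled in at least 1 group, and their folds against those groups are uncertain beyond the intervals given. With 2 libraries a group, 1 library can decide a call.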
